A study of Mus musculus and Rattus norvegicus with 53 samples.

Results

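The genes that build the lipids of the myelin membrane were followed through 40 genes of cholesterol, fatty acid and sphingolipid synthesis, taken by symbol from the mouse count tables, which list 24016 genes. The sterol branch held 17 genes, the regulators of the SREBP pathway 5, the fatty acid branch 12 and the sphingolipid branch 6. Reads were counted for 39 of the 40. The exception was Hmgcs1, the cytosolic HMG-CoA synthase, which was listed at 0 in every library and had no gene model in the mm9 annotation used here, so its level is unknown.

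All mice were tdTom SC reporters, in which a Cre transgene active in the neural crest lineage switches on tdTomato from the Rosa26 locus. One sciatic nerve of young adult animals of both sexes was fully transected, and tdTomato+ cells were sorted from the contralateral intact nerve (iSCs), the stump distal to the cut (dSCs) or the bridge of new tissue between the stumps (bSCs). In the first experiment nerves of several mice were pooled for each library and collected on day 6, with 4 libraries for each of the 3 regions. In the second experiment each library came from 1 nerve, with 5 iSC libraries, 3 dSC libraries on each of days 1, 2, 4, 6 and 8 and on day 10, and 3 bSC libraries on each of days 4, 6, 8 and 10. No group received a drug or a further genetic change. The reporter marks the Schwann cell (SC) lineage as a whole, so myelinating and non-myelinating SCs are sorted together, and in such bulk samples fewer cells of a type and less RNA per cell cannot be told apart.

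Cholesterol is made from acetyl-CoA through mevalonate, isoprenoid diphosphates and squalene, which is then closed into a ring and trimmed. The SREBP transcription factors switch on these enzymes when sterols run low: Scap carries SREBP out of the endoplasmic reticulum and the Insig proteins hold it back. Fatty acids are built by Acaca and Fasn, then lengthened by the elongases and desaturated. Sphingolipids begin with serine palmitoyltransferase, and in myelinating cells Fa2h, Ugt8a and Gal3st1 turn ceramide into the hydroxylated galactosylceramide and sulfatide that fill the myelin sheath. Myelinating SCs make most of their own cholesterol.

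Promoter sequences are shown for 4 members that carry the results below: Idi1, Cyp51 and Insig1 of the sterol and SREBP group, and Ugt8a of the galactolipid step. The sequences are from RefSeq (GRCm38.p6) and cover the 250 bases before the start of the gene, which the table held for 33 of the 40 members. Capitals mark CCAAT, the box bound by NF-Y, or its reverse complement ATTGG.
Idi1, chr13:8885356-8885605, + strand: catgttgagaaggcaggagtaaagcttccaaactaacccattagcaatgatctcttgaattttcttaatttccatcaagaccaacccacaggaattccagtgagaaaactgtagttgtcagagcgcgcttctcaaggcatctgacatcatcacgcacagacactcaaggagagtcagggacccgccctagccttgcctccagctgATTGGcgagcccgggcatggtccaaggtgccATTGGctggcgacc
Cyp51, chr5:4104698-4104947, - strand: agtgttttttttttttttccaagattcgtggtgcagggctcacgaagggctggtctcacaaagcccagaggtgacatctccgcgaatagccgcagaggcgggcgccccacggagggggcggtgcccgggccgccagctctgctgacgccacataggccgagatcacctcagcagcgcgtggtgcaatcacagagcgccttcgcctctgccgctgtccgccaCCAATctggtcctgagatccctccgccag
Insig1, chr5:28071162-28071411, + strand: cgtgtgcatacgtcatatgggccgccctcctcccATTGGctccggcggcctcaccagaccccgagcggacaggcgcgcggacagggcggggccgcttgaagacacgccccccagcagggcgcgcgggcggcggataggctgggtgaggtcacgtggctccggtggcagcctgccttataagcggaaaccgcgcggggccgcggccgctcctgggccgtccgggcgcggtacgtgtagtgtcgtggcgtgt
Ugt8a, chr3:125938653-125938902, - strand: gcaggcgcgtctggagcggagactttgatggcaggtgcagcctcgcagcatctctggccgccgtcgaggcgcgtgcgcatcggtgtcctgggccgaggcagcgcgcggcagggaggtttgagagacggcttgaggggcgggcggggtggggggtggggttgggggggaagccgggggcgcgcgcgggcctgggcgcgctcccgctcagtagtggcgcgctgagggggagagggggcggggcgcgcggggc

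The box lay 45 and 14 bases before the start of Idi1, 29 bases before that of Cyp51 and 216 bases before that of Insig1, and the Ugt8a window held no match. On either strand, CCAAT was found in 34.5% of the 27025 mouse promoter windows of this length and in 24 of the 33 member windows. These were 12 of 14 sterol, 4 of 5 SREBP control, 5 of 9 fatty acid and 3 of 5 sphingolipid windows. A strict sterol response element, TCACNCCAC, was in 1.04% of all windows and in 1 member window, that of Hmgcs1. A match of letters is a description of the window and not a binding site.

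Libraries held 9240883 to 22617054 counts on genes, and levels are given as CPM, the count of a gene relative to the TMM-normalized size of its library. Smart-seq2 amplifies cDNA by PCR without molecular identifiers, so reads are not independent molecules. Among the single nerves, 4 libraries stood apart with 10042 to 11138 genes detected against 11983 to 15815 in the others: iSC nerves 0 and 1, dSC day 1 nerve 1 and dSC day 2 nerve 0. The dSC and bSC libraries of day 4 nerve 1, which the labels give to 1 animal, were near-identical (Pearson r of log2 CPM across genes 0.997, next highest pair 0.946), although they differed by more than 2 lanes of one library did. Calls of single genes in the single nerves are therefore given with and without these 4 and these 2 libraries, while levels, medians and marker sums there include all libraries. The 7 SC markers examined, among them Sox10, S100b, Mbp, Pmp22 and Ngfr, were each detected in every group, as were all 9 macrophage and all 5 fibroblast markers examined.

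In iSCs of pooled nerves genes of all 3 branches stood among the most abundant of the 39. Levels in CPM per kilobase of exon were 302.4 ± 89.9 (SD, n = 4) for Scd2, a stearoyl-CoA desaturase, 290.5 ± 62.8 for Fdps, the farnesyl diphosphate synthase, and 256 ± 81.0 for Ugt8a, the ceramide galactosyltransferase. Elovl1 followed at 216.8 ± 57.9, Idi1 at 172.5 ± 67.3 and Fa2h at 149.1 ± 57.1. Neighbours in this order did not differ beyond their spread. At the low end stood Acaca, the acetyl-CoA carboxylase that commits acetyl-CoA to fatty acids, at 4.43 ± 2.27.

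On day 6 after transection the pathway was lower in dSCs than in iSCs. Of the 39 genes, 21 passed an adjusted p of 0.05 and all 21 were lower (edgeR's quasi-likelihood test with Benjamini-Hochberg adjustment over 13751 genes), against 2.69% of all genes tested that were called lower and 5.32% called in either direction. In 28 of the 39 every dSC library lay below every iSC library, as in 9.41% of all genes. The median log2 fold change was -2.17 for the 39 genes and -0.02 for all genes tested, and Insig2 was the only gene of the 39 with a fitted value above 0. All 39 passed the filter on low counts, also when the iSC libraries were left out of it.

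The cholesterol enzymes come first. Of the 8 tested genes from acetyl-CoA to squalene and its epoxidation by Sqle, 7 were called lower, with fitted values for the 8 from -5.44 to -1.54. Gene positions from here on are in mm9, whereas the promoter windows above are in GRCm38.p6, so their coordinates cannot be compared directly. Idi1 (chr13:8884852-8891641 in mm9), which converts isopentenyl diphosphate to its isomer for chain building, had 554, 704, 478 and 242 CPM in iSC pools 1, 2, 4 and 5. It had 0.306, 16.3, 21.7 and 7.16 CPM in dSC pools 1, 2, 3 and 5 and 37.5, 31.9, 47.4 and 78.8 CPM in bSC pools 1, 2, 3 and 5. The 3 regions did not overlap, with dSCs lowest. The log2 fold change of dSCs against iSCs was -5.44 ± 0.86 (SE, adjusted p = 0.00295).

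Mvd, the mevalonate diphosphate decarboxylase, ranged from 38.7 to 58.6 CPM in iSCs and from 0.230 to 12.01 CPM in dSCs (log2 fold change -3.48 ± 0.87, adjusted p = 0.0359). Its call was lost when iSC pool 1, 2 or 4 or dSC pool 2 or 3 was left out, with adjusted p up to 0.0979. Fdps (chr3:88897514-88905881), given because it returns in the later comparisons, had 386, 414, 389.8 and 244 CPM in iSCs and 63.1, 30.4, 40.1 and 29.2 CPM in dSCs. Its groups were far apart and its spread small, and the fold change was -3.14 ± 0.34 (adjusted p = 0.000438).

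The ring-forming and trimming enzymes were more varied. Here 4 of 8 were called lower, with fitted values from -4.20 to -0.09. Cyp51, the lanosterol demethylase, fell from 122 to 299.6 CPM in iSCs to 8.95 to 31.2 CPM in dSCs (log2 fold change -3.48 ± 0.43, adjusted p = 0.000716). Sc5d, the lathosterol desaturase, fell from 177 to 422 CPM to 12.4 to 44.9 CPM (-3.31 ± 0.51, adjusted p = 0.00256). Lss and Tm7sf2 had large but imprecise values, with SEs of 1.60 and 2.05, and did not pass. Ebp, the sterol isomerase, had overlapping levels in the 3 regions, at 38.8 to 68.5 CPM in iSCs, 43.2 to 55.1 CPM in dSCs and 46.3 to 83.6 CPM in bSCs.

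The regulators split. Srebf1, Srebf2 and Insig1 were called lower in dSCs, whereas Scap and Insig2 were not called. Insig1, itself a sterol-responsive target of SREBP, had 364, 389, 381 and 240.0 CPM in iSCs against 46.97, 28.5, 53.7 and 44.1 CPM in dSCs (log2 fold change -2.99 ± 0.36, adjusted p = 0.000612). Srebf2, which drives mainly the sterol enzymes, ranged from 110.5 to 174 CPM in iSCs and from 15.3 to 32.6 CPM in dSCs (-2.38 ± 0.36, adjusted p = 0.00243). No iSC and dSC libraries overlapped for either gene.

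Of the 12 fatty acid genes, 6 were called lower in dSCs. Among the 4 that make the first chain only Fasn, the fatty acid synthase, was called, at 77.0 to 216 CPM in iSCs and 30.7 to 43.0 CPM in dSCs (log2 fold change -2.06 ± 0.36, adjusted p = 0.00549). Among the 8 elongases and desaturases 5 were called. Elovl6, which extends palmitate, ranged from 90.01 to 282 CPM in iSCs and 16.6 to 48.4 CPM in dSCs (-3.01 ± 0.60, adjusted p = 0.0115). Fads1, the delta-5 desaturase, ranged from 208 to 559 CPM and 38.1 to 118 CPM (-2.32 ± 0.38, adjusted p = 0.00335). Acly, Scd1 and Elovl5 had fitted values between -0.64 and -0.14 and were not called.

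The sphingolipid genes fell into 2 kinds. Sptlc1, Sptlc2 and Degs1, which make the sphingoid base and ceramide used by all cells, had overlapping levels in iSCs and dSCs. Sptlc2 had the lowest p of the 3 and did not pass, with a log2 fold change of -0.72 ± 0.32 (adjusted p = 0.264). The 3 galactolipid genes were each lower in all dSC libraries than in all iSC libraries. Fa2h (chr8:113869035-113917724), the fatty acid 2-hydroxylase, had 362, 421, 697 and 313 CPM in iSCs against 0, 0.0673, 14.99 and 0 CPM in dSCs (-6.89 ± 1.79, adjusted p = 0.0417). It was near 0 in all dSC pools except pool 3. Its call held without iSC pool 5 or without dSC pool 3 and was lost on leaving out any of the other 6 libraries, with adjusted p from 0.0811 to 0.0995.

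Ugt8a (chr3:125568277-125641468) had 978, 1068, 1131 and 492 CPM in iSCs, 18.4, 64.6, 60.7 and 36.7 CPM in dSCs and 0.0897, 31.2, 153 and 9.75 CPM in bSCs. Each injured library was below each iSC library. With dSCs the fold change was -4.35 ± 1.21 and missed the threshold (adjusted p = 0.0546), and with bSCs it was -4.25 ± 1.201 and passed it (adjusted p = 0.0308). The dSC comparison passed by DESeq2 (-4.35, adjusted p = 0.00068). In edgeR it passed with the groups compared alone (adjusted p = 0.00103) and without the filter on low counts (0.0457). Under the other alternatives, among them the pool number as a block and any library left out, it did not pass. The bSC call was lost on leaving out iSC pool 1, 2 or 4 or bSC pool 2 or 5 (adjusted p up to 0.0729). Gal3st1, the sulfotransferase that makes sulfatide, ranged from 20.2 to 66.1 CPM in iSCs, 0 to 14.7 CPM in dSCs and 15.9 to 39.0 CPM in bSCs.

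**Figure D1:**
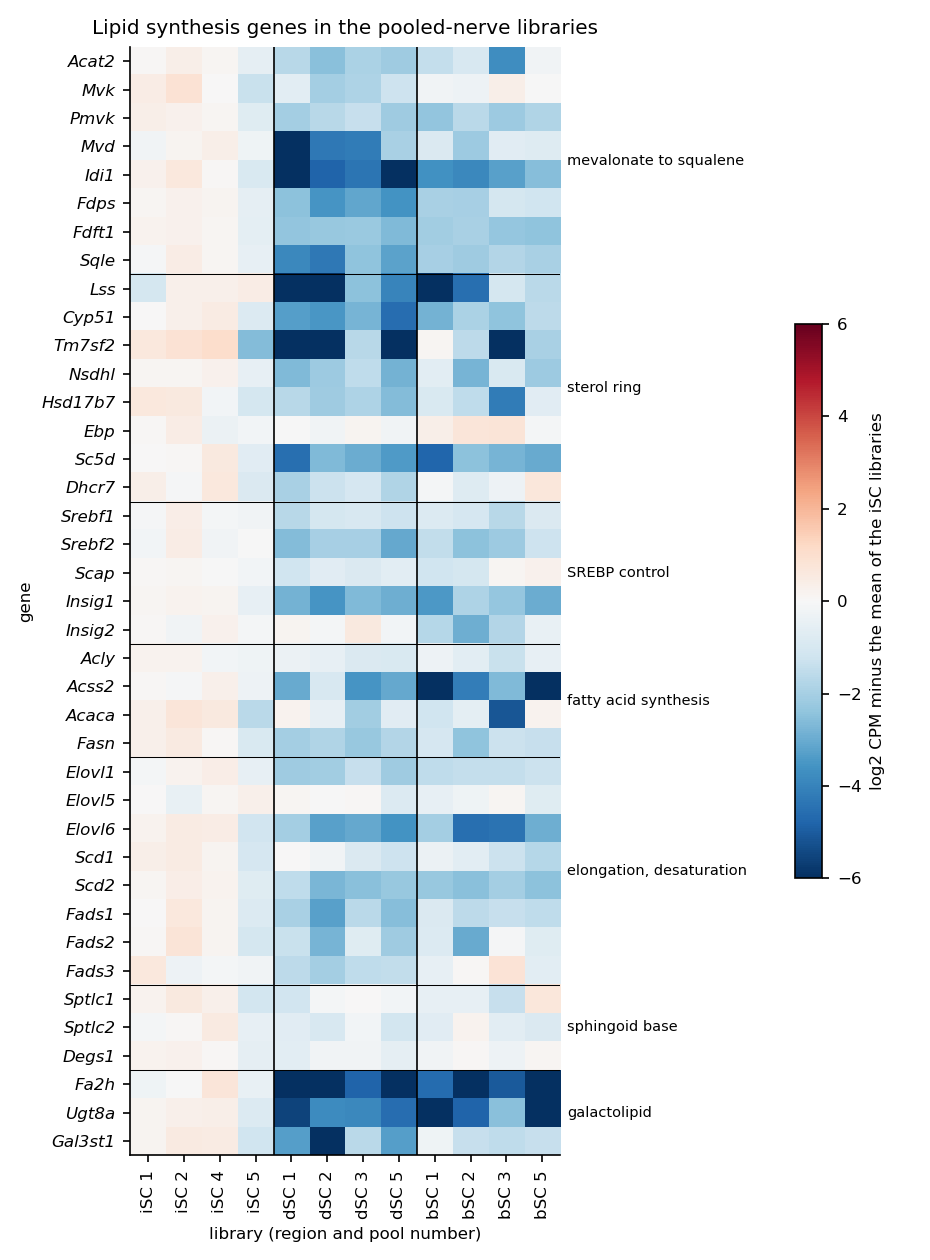
Level of 39 lipid synthesis genes (rows, grouped by step) in the 12 pooled-nerve libraries (columns), as log2 CPM minus the mean of the iSC libraries, with colour limits at -6 and 6. Most sterol and galactolipid rows are blue in dSCs and bSCs, with Ebp near white in both and Mvk and Dhcr7 near white in bSCs, and iSC pool 5 lies below the iSC mean in most rows while the other iSC pools lie mostly above it.

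With the pool number as a block, since the labels give same-numbered libraries of the 3 regions 1 animal identifier, 12 of the 21 calls in dSCs were kept. Among the genes named above the call was lost for Mvd (adjusted p = 0.102), Fasn (0.0641), Elovl6 (0.0530) and Srebf1 (0.134). Leaving out iSC pool 1 or iSC pool 2 left 13 calls, and leaving out any other single library left 14 to 22. The 13 genes called in all 8 such fits were Idi1, Fdps, Fdft1, Sqle, Cyp51, Sc5d, Srebf2, Insig1, Fasn, Elovl1, Elovl6, Scd2 and Fads1. Fdft1, the squalene synthase, shares 26.9% of its exonic bases with Ctsb on the other strand, and Smart-seq2 reads carry no strand, so its counts are uncertain.

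Markers of other cells moved with the regions. The summed level of the 9 macrophage markers was 183 to 4537 CPM in iSCs, 7864 to 12500 CPM in dSCs and 1798 to 5361 CPM in bSCs, with no marker at 0 in any group, and Cd68 was called higher in dSCs (log2 fold change 3.08). iSC pool 5 held the highest macrophage sum of the iSC pools and the lowest level of most lipid genes. Without it 22 genes were called in dSCs, the 21 and 1 more. The 5 fibroblast markers summed to 6963 to 34760 CPM in iSCs, 22020 to 31900 CPM in dSCs and 8295 to 18070 CPM in bSCs. Markers of adipocytes, which also make fatty acids, summed to at most 172 CPM in any pooled library, with Plin1 at 0 in dSCs and with 6 of the 7 at 0 in all bSC pools. The part of these markers in the lipid results was not tested.

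The SC markers themselves changed in the same comparison. In dSCs 5 of the 7 were called lower, among them Pmp22 (log2 fold change -5.60), and Ngfr was called higher (2.65). Their sum fell from 26730 to 67280 CPM in iSCs to 1799 to 6498 CPM in dSCs. In bSCs 6 were called lower, among them Pmp22 (-5.26), and Ngfr was again called higher. Of 6 endothelial markers, Cldn5 was called lower in dSCs (-2.81) and none in bSCs. Dcn (-2.93) and Lum (-1.95) of the fibroblast list and Cfd of the adipocyte list, at 0 in all bSC pools, were called lower in bSCs. None of 4 mural markers was called in either region, and 4 skeletal muscle markers summed to at most 2.36 CPM.

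bSCs showed the same direction with smaller sterol changes. Against iSCs 19 of the 39 genes were called, all lower, against 7.46% of all genes called lower and 14.7% called in either direction. In 23 of the 39 the libraries did not overlap, as in 14.5% of all genes. Median log2 fold changes were -1.65 for the sterol, -1.23 for the fatty acid, -1.46 for the SREBP control and -4.25 for the galactolipid genes, and -0.16 for all genes tested. Both contrasts with iSCs share the same 4 iSC libraries.

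Of the first 8 sterol genes 5 were called lower in bSCs, among them Idi1 (log2 fold change -3.34 ± 0.78, adjusted p = 0.0117) and Fdft1 (-2.22 ± 0.24, adjusted p = 0.000136). Of the ring genes only Sc5d (-3.10 ± 0.51, adjusted p = 0.00149) and Cyp51 (-2.19 ± 0.41, adjusted p = 0.00336) were called. With the pool block the Idi1 call was lost (adjusted p = 0.0561). Dhcr7, the last reductase before cholesterol, had 33.3 to 92.3 CPM in bSCs, which overlapped the 31.7 to 87.8 CPM of iSCs.

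Of the 5 regulators, 4 were called lower in bSCs. Insig1 had 31.1, 93.2, 67.7 and 43.4 CPM in bSC pools 1, 2, 3 and 5 (log2 fold change -2.54 ± 0.35, adjusted p = 0.000554), and Srebf2 had 23.6 to 54.9 CPM (-1.77 ± 0.36, adjusted p = 0.00504). Insig2, singled out after its values were seen, had 17.7, 7.46, 17.3 and 42.9 CPM in bSCs, below its 50.5 to 68.9 CPM in iSCs and 52.7 to 88.3 CPM in dSCs. Its bSC libraries lay under all other pooled libraries. Its call against iSCs was weak (adjusted p = 0.0425), was lost with the pool block (0.105) and was kept in 1 of 8 fits that left out a library.

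Of the 12 fatty acid genes, 6 were called lower in bSCs. Acss2, the cytosolic acetyl-CoA synthetase, had 0, 3.29, 9.45 and 0.327 CPM against 49.1 to 75.7 CPM in iSCs (log2 fold change -4.25 ± 1.26, adjusted p = 0.0372). It was nearly absent from 2 bSC pools. That call was lost with the pool block (adjusted p = 0.0723) and when any iSC pool or bSC pool 2 or 5 was left out (up to 0.0757). Fasn had a fold change of -1.54 ± 0.35 (adjusted p = 0.0110, and 0.0967 with the block). Elovl6 changed by -3.25 ± 0.60 (adjusted p = 0.00310) and Scd2 by -2.37 ± 0.32 (adjusted p = 0.000506).

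Among the sphingolipid genes Fa2h and Ugt8a were called lower in bSCs and the other 4 were not. Fa2h had 17.5, 4.39, 13.1 and 0 CPM in bSCs (log2 fold change -5.68 ± 1.69, adjusted p = 0.0382). This call was kept only when iSC pool 5 was left out, and the highest adjusted p on leaving out another library was 0.0899. Sptlc2, again the lowest p of the sphingoid base genes, did not pass (-0.47 ± 0.32, adjusted p = 0.375).

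**Figure D2:**
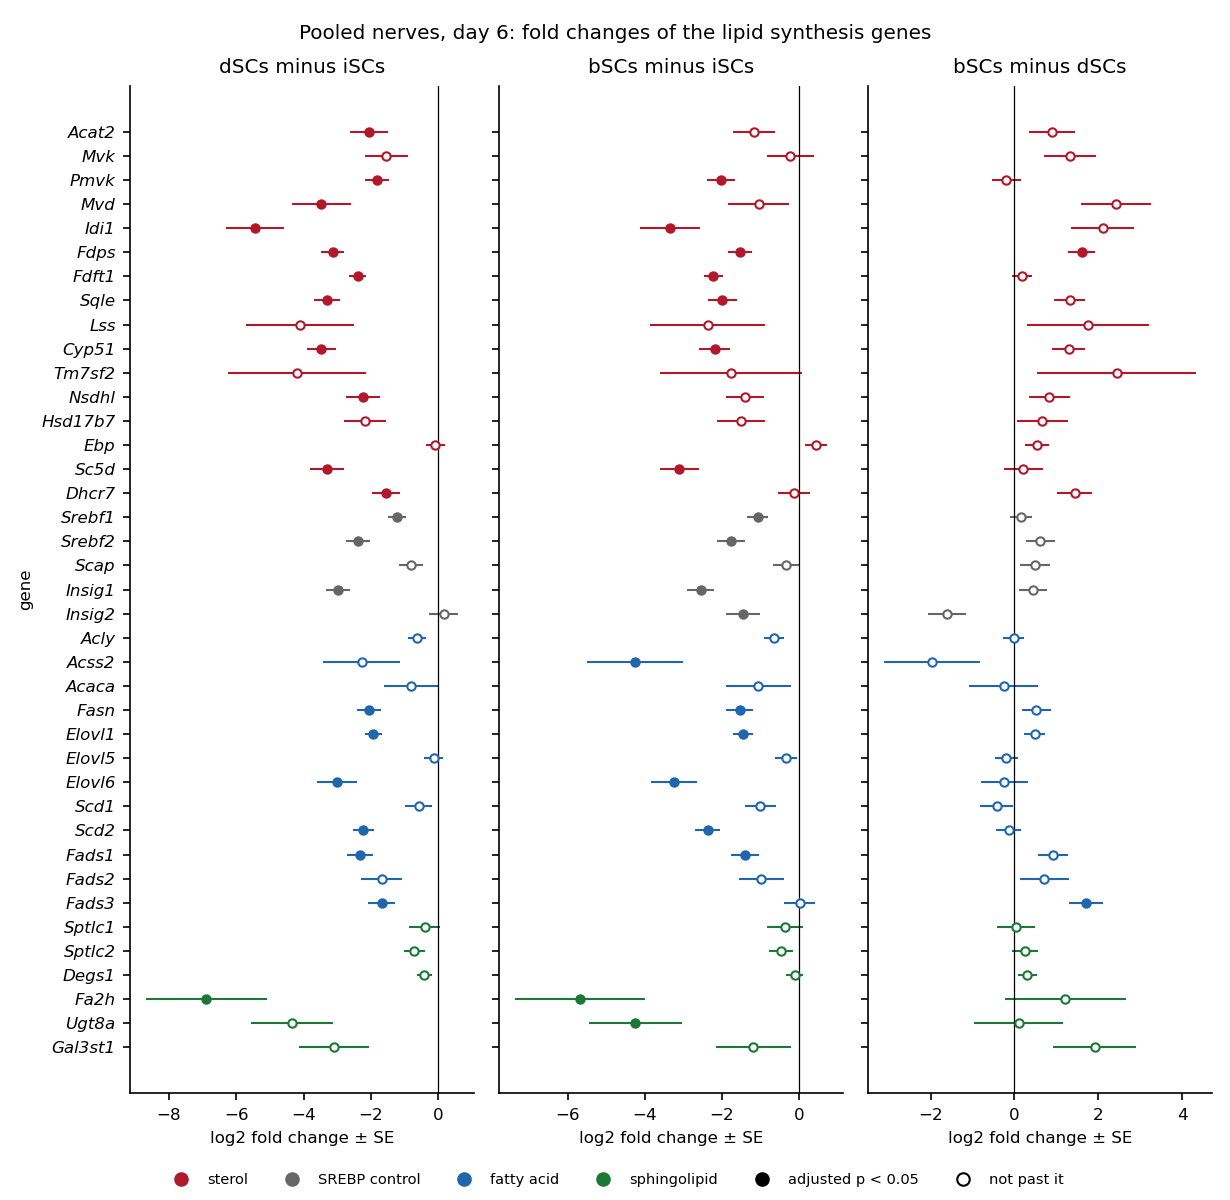
Log2 fold change with its SE for each of 39 genes in the 3 comparisons of the pooled nerves, with 4 libraries per region, coloured by branch. Filled points passed an adjusted p of 0.05: 21 on the left, 19 in the middle and 2 on the right, where 15 of 16 sterol points lie above 0.

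When both injured regions were compared, sterol genes lay mostly higher in bSCs. bSCs were above dSCs by a median log2 fold change of 1.30 over the 16 sterol genes, 15 of which had values above 0, against -0.08 for the fatty acid genes, 0.28 for the sphingolipid genes, 1.22 for the 3 galactolipid genes among these and -0.07 for all genes tested. No test compared the branches. Only 2 of the 39 genes were called, both higher in bSCs, against 2.31% of all genes called higher and 5.43% called in either direction. DESeq2 called 8 of the 39, and the fit with the pool block none. The 2.31% and 5.43% belong to the edgeR fit without a block and are no background for these counts. In 8 genes the bSC libraries lay above all dSC libraries, as in 6.77% of all genes, and in 1, Insig2, below them, as in 8.62%.

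Fdps was one of the 2, at 90.3, 87.3, 166 and 152 CPM in bSCs against 29.2 to 63.1 CPM in dSCs. The difference was 1.61 ± 0.32 on the log2 scale (adjusted p = 0.0146), and was not past the threshold with the pool block (1.64, adjusted p = 0.0583). Fads3, a desaturase of sphingoid bases, was the other, at 33.1, 49.6, 84.2 and 30.8 CPM in bSCs and 16.1, 11.2, 16.5 and 16.9 CPM in dSCs (1.70 ± 0.41, adjusted p = 0.0295, and 0.0958 with the block). Its bSC levels overlapped those of iSCs, at 38.4 to 72.3 CPM. The Fads3 call was lost on leaving out bSC pool 2 or 3 or any dSC pool, with adjusted p up to 0.0747, whereas that of Fdps was kept in all 8 such fits (highest 0.0489).

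Idi1 also lay higher in all bSC than in all dSC libraries (2.10 ± 0.75), as did Sqle, Mvk and Dhcr7 of the sterol branch, without passing the threshold. The macrophage sum was lower in bSCs than in dSCs, at the values given above, and so was that of the fibroblast markers, of which Lum (-3.25) and Dcn (-2.87) were called. Of the other marker lists, Cfd of the adipocyte list was called lower and Kdr of the endothelial list higher (2.96).

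Taken library by library, the median log2 level of the 16 sterol genes relative to the iSC mean was -2.56, -2.59, -2.05 and -2.73 in dSC pools 1, 2, 3 and 5 and -1.69, -1.93, -1.96 and -1.60 in bSC pools 1, 2, 3 and 5. The dSC and bSC libraries did not overlap on this measure. For the 12 fatty acid genes the range was -1.95 to -1.53 in dSCs and -1.49 to -0.95 in bSCs. These did not overlap either, although the median fold change of these genes between the regions, given above, was slightly below 0. iSC pool 5 was lowest among the iSC libraries in both branches, at -0.64 and -0.77.

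**Figure D3:**
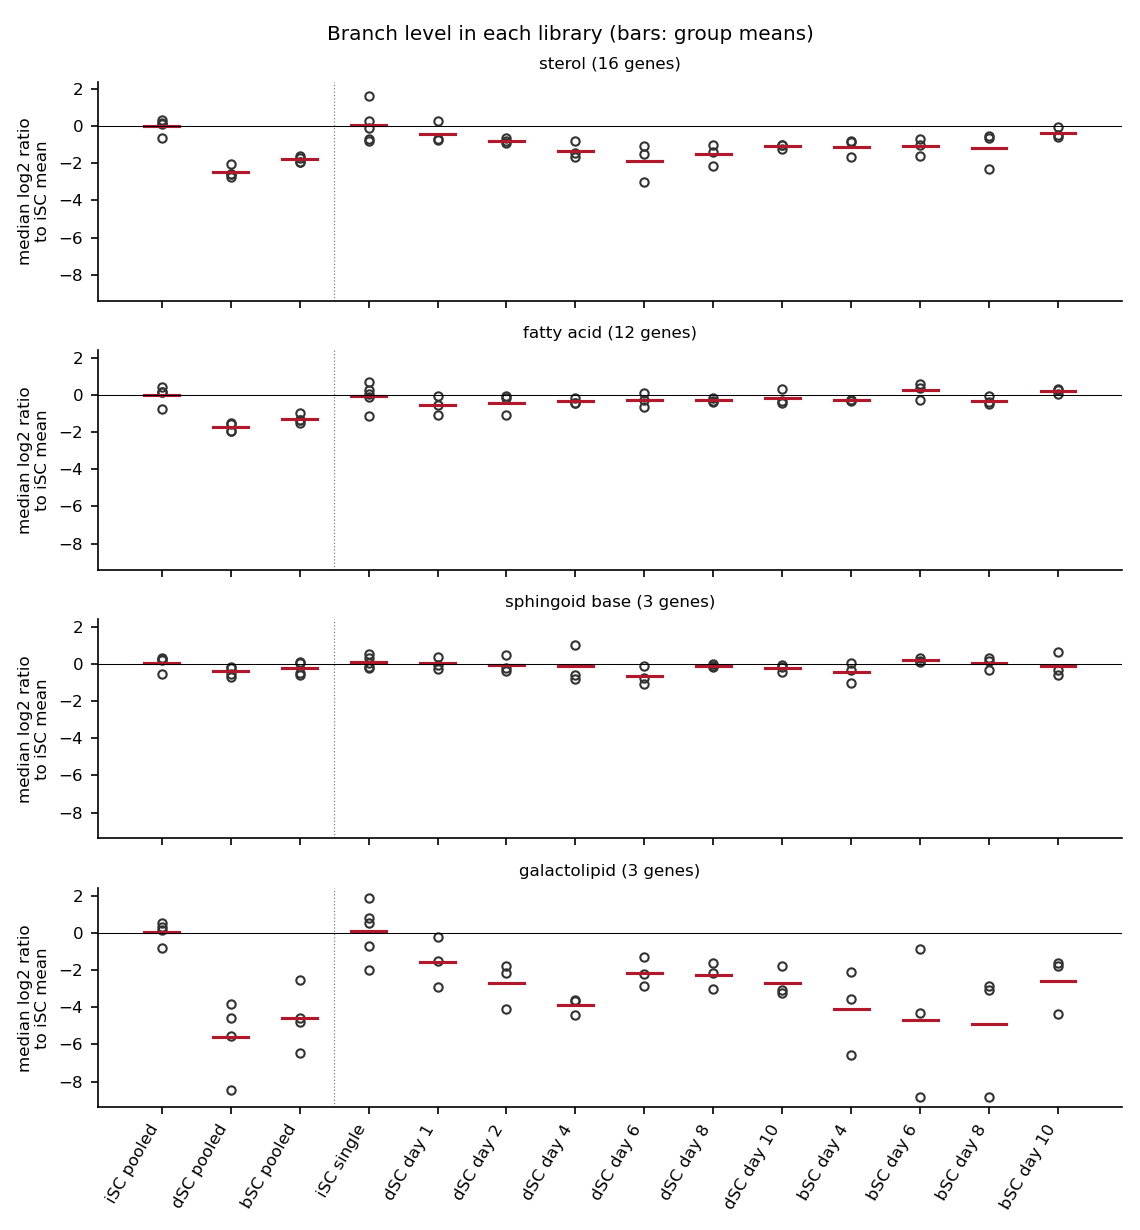
Median over the genes of a branch of the log2 level relative to the mean of the iSC libraries of the same experiment, for each library (circles) with the group mean (bars). The left 3 columns are the pooled and the other 11 the single nerves, and the group means of the sphingoid base genes lie between -0.66 and 0.21 throughout.

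Genes of the same pathways that were not among the 40 were counted on a separate list. Of 15 further sterol and SREBP genes tested, 4 were lower and none higher in dSCs, where 5.32% of all genes were called, and 4 were lower and none higher in bSCs, where 14.7% were. Msmo1, the methylsterol oxidase that acts after Cyp51, was among them in both regions, with log2 fold changes of -3.90 in dSCs and -2.93 in bSCs.

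Of 20 further fatty acid genes 5 were lower and 1 higher in dSCs, where 5.32% of all genes were called. Pmp2, the fatty acid binding protein of myelin, had a log2 fold change of -5.42 and Fabp5, an epidermal type fatty acid binding protein, of 2.12. In bSCs, where 14.7% of all genes were called, 3 were lower and 2 higher, led by Fabp5 (1.85) and Acsl4 (1.73). Against dSCs 3 were higher in bSCs, led by Ptplb (1.27) and Acsl4 (1.14), with 2.31% of all genes called higher. Of 21 further sphingolipid genes 2 were lower and 2 higher in dSCs, where 5.32% of all genes were called. Ugcg, the glucosylceramide synthase that competes with Ugt8a for ceramide, was higher in dSCs (2.301) and Cers4, a ceramide synthase, lower (-2.29). In bSCs 2 were lower and 1 higher, led by Cers4 (-2.25) and Sgms1 (-1.69), and Ugcg was lower in bSCs than in dSCs (-3.07). The 3 of 21 called in bSCs are near the 14.7% of all genes called there.

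The single nerves give levels by day, with wider spread. All comparisons with iSCs share the same 5 iSC libraries, and 15519 genes were tested. Percentages of all genes below are those called by edgeR at an adjusted p below 0.05. No such share is given for counts by DESeq2 or by unadjusted p, so those counts have no background here. In dSCs no gene of the 39 was called on day 1 or day 2 (0.180% and 0.445% of all genes called), where 1 and 7 had an unadjusted p below 0.05 and DESeq2 called 0 and 2. Idi1 and Fdps were called lower on day 4, day 6 and day 8 (1.73%, 0.554% and 0.303% of all genes called, and 0.515%, 0.0773% and 0.0258% called lower, with 9, 9 and 8 members called by DESeq2), and none was called on day 10 (0.354%), with 10 at an unadjusted p below 0.05 and 6 called by DESeq2.

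Idi1 in the iSC nerves was 745, 352, 238, 237 and 138 CPM. In dSCs it was 112, 142 and 109 CPM on day 1, 54.2, 55.1 and 76.4 on day 2, 26.7, 1.47 and 3.79 on day 4, 0.780, 0.0813 and 5.52 on day 6, 12.5, 11.4 and 18.4 on day 8, and 38.8, 29.7 and 25 on day 10. The level was lowest on day 6 and from day 2 on lay under every iSC library. Log2 fold changes against iSCs were -1.50 ± 0.89 on day 1, -2.47 ± 0.93 on day 2, -5.00 ± 1.07 on day 4 (adjusted p = 0.0108), -7.30 ± 1.21 on day 6 (0.00143), -4.60 ± 1.05 on day 8 (0.0437) and -3.46 ± 0.99 on day 10 (0.166).

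The test of any difference among the 6 days in dSCs called no member (0.0644% of all genes called, 7 members at an unadjusted p below 0.05, 1 called by DESeq2), and Idi1 had the lowest p of the members there (adjusted p = 0.0818). Without the 4 libraries with few genes Idi1 was called on days 4 and 6 and not on day 8 (adjusted p = 0.154). Without the near-identical libraries it was called on days 6 and 8 and not on day 4 (0.0518). Without all 6 libraries it was called on day 6 alone. Fitted with the iSC and dSC libraries of that day alone, it was called on none of the 3 days (adjusted p = 0.0934, 0.152 and 0.0506), nor was Fdps (0.281 to 0.327). Leaving out dSC day 4 nerve 1 or 2, or on day 8 any dSC nerve or iSC nerve 0, 1 or 4, also lost that day's call, with adjusted p up to 0.101 and 0.256.

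Fdps in dSCs was 70.8 to 121 CPM on day 1, 30.6 to 63.4 on day 4, 25.3 to 38.9 on day 6, 24.3 to 40.2 on day 8 and 40.2 to 61.5 on day 10, against 89.9 to 736 CPM in iSCs. Its fold changes were -2.45 ± 0.60 on day 4 (adjusted p = 0.0269), -2.99 ± 0.62 on day 6 (0.0135) and -2.92 ± 0.62 on day 8 (0.0236). The highest iSC value came from nerve 0, a library with few genes. Without the 4 libraries none of the 3 calls held, with log2 values of -1.21, -1.80 and -1.70 and adjusted p from 0.0764 to 0.180. The Fdps call was also lost on leaving out iSC nerve 0 (days 4 and 8), any dSC nerve of day 4 or of day 8, or dSC nerve 0 or 1 of day 6, and on day 4 without the near-identical libraries, with adjusted p up to 0.199.

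In bSCs 1 gene was called on day 4 (Idi1, with 1.57% of all genes called and 0.438% called lower) and 1 on day 6 (Insig1, 1.33% and 0.515%), where DESeq2 called 8 and 7, and none on day 8 (0.303%) or day 10 (1.30%). On those last days 11 and 4 genes had an unadjusted p below 0.05, and DESeq2 called 6 and 4. Idi1 was 22.8, 2.41 and 46.1 CPM on day 4 (log2 fold change -3.85 ± 1.01, adjusted p = 0.0430). Insig1 was 38.0, 20.7 and 25.9 CPM on day 6 (-3.35 ± 0.83, adjusted p = 0.0332), while its iSC nerves ranged from 34.7 to 701 CPM and overlapped these. Neither call held without the 4 libraries with few genes (adjusted p = 0.110 and 0.125), and that of Idi1 was lost without the near-identical libraries (0.152).

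Neither was called with the groups compared alone (0.160 and 0.289), and both calls depended on single nerves as well. That of Idi1 was lost on leaving out any day 4 bSC nerve or iSC nerve 0, 1 or 4 (adjusted p up to 0.192), and that of Insig1 on leaving out any day 6 bSC nerve or iSC nerve 0 or 1 (up to 0.205).

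Averaged over days 4, 6, 8 and 10, no gene of the 39 was called between bSCs and dSCs (0.103% of all genes called, 4 of the 39 at an unadjusted p below 0.05, 2 called by DESeq2). Idi1 came nearest, at 2.14 ± 0.49 higher in bSCs (adjusted p = 0.0636). It passed without the 4 libraries with few genes, and without all 6 libraries both Idi1 and Cyp51 were called. It passed as well on leaving out 1 of 4 libraries: dSC day 4 nerve 0, dSC day 6 nerve 3, bSC day 4 nerve 1 or bSC day 8 nerve 2 (adjusted p from 0.0183 to 0.0396). No gene was called for a change of this difference between days, among the 39 or among all genes, with 1 of the 39 at an unadjusted p below 0.05 and none called by DESeq2. A block for the animal, over the 10 pairs of stump and bridge that the labels give to 1 animal, also called none.

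**Figure D4:**
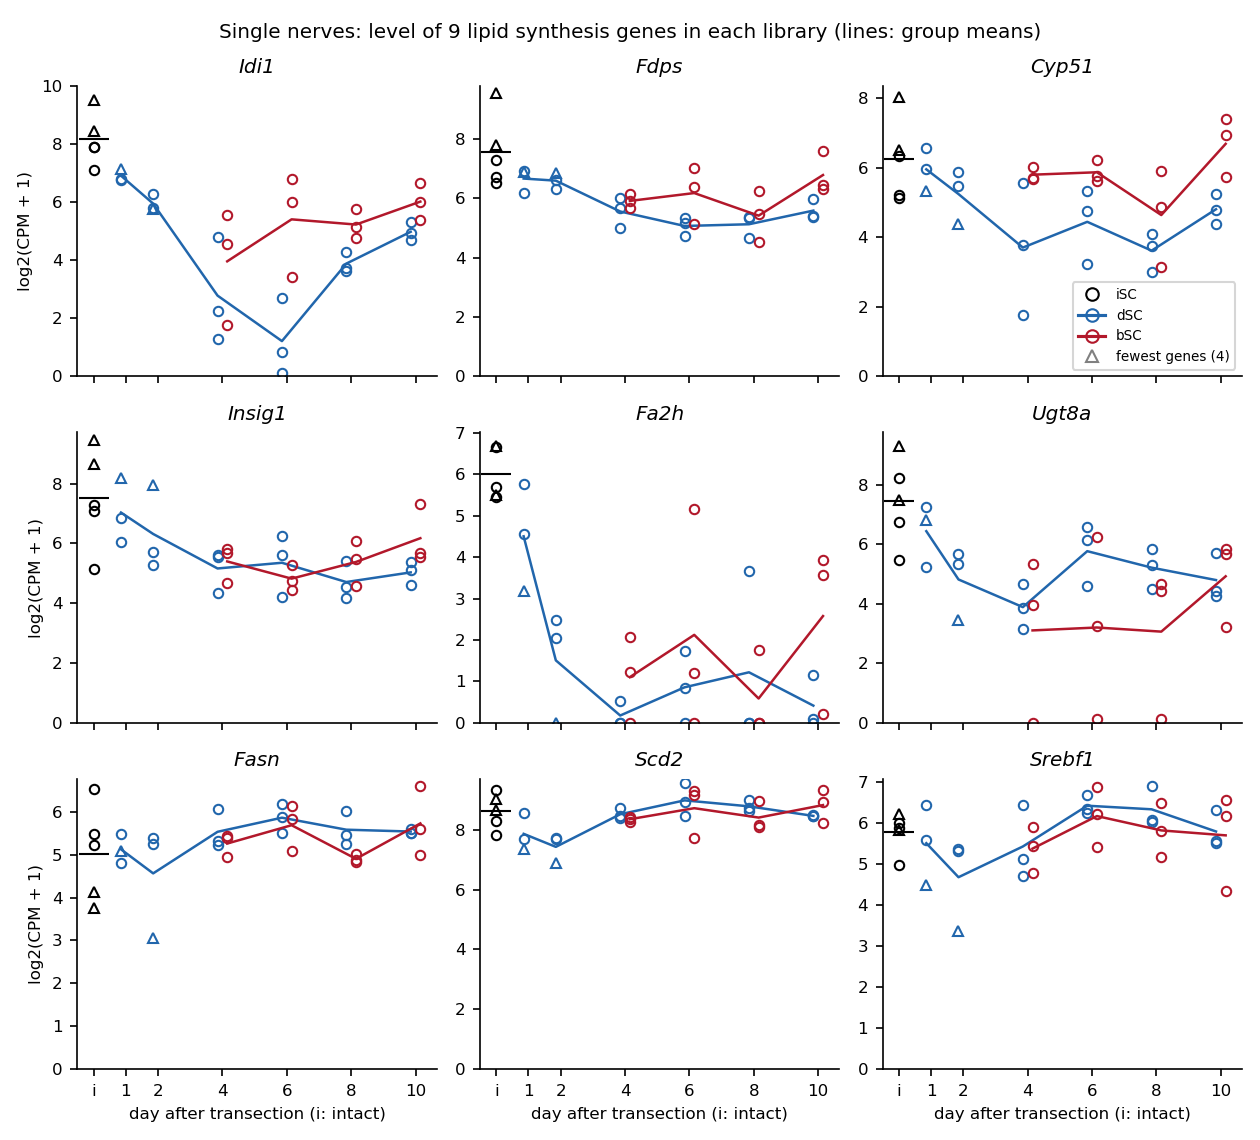
Level of 9 lipid synthesis genes in each of the 35 single-nerve libraries on a log2(CPM + 1) axis, by day after transection, with lines through the group means and triangles for the 4 libraries with few genes. Idi1 dips to its lowest on day 6 in dSCs, and Fasn, Scd2 and Srebf1 overlap the iSC level.

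By branch, the median log2 fold change of the 16 sterol genes in dSCs was -0.79, -1.16, -1.66, -1.75, -1.63 and -1.64 on the 6 days in turn, while the median of all genes tested lay between -0.07 and 0. In bSCs it was -1.50, -1.27, -1.33 and -0.89 on days 4, 6, 8 and 10. Taken library by library, the sterol median relative to the iSC mean ranged from -0.801 to 1.65 over the 5 iSC nerves. Libraries of dSCs on days 1 and 2 and of bSCs on days 6, 8 and 10 reached into that range. On day 10 all bSC libraries lay inside it (-0.604 to -0.065). All libraries of the other days lay below it, narrowly on day 4 (highest -0.823 in dSCs and -0.816 in bSCs). The 12 fatty acid genes stayed nearer to 0, between -0.64 and -0.31 in dSCs and between -0.49 and 0.18 in bSCs. The 3 galactolipid genes had medians between -4.04 and -1.32 in dSCs and between -4.07 and -2.49 in bSCs. None of them was called on any day by edgeR in the fit of all single-nerve libraries.

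Fa2h in the single iSC nerves was 44.1, 102, 42.6, 100.3 and 51.2 CPM. In dSCs it was 22.5, 8.101 and 53.6 CPM on day 1, 0, 3.12 and 4.57 on day 2, and 0 to 0.436 on day 4. From day 2 on every dSC library was below every iSC library. On day 4 the log2 fold change was -8.68 ± 2.83 and did not pass (adjusted p = 0.106). Ugt8a ranged from 43.6 to 629.5 CPM in iSCs and from 7.86 to 24.4 CPM in dSCs on day 4 (-4.04 ± 1.46, adjusted p = 0.153). DESeq2 called both genes lower in dSCs on day 4, Fa2h at -8.79 (adjusted p = 0.00055) and Ugt8a at -4.02 (0.0117). Fa2h also passed in edgeR with the groups compared alone (adjusted p = 0.0430). No other alternative called either gene on that day.

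In the single nerves macrophage markers were called higher in dSCs on every day, with 9 of 9 called on day 4, when their sum was 7476 to 11970 CPM against 247 to 1010 CPM in iSCs. In bSCs between 2 and 6 of the 9 were called higher on each day. Adipocyte markers reached 1364 CPM in iSC nerves and 131 CPM or less in dSCs from day 4 on, and up to 707 CPM in bSCs, with none called. Of the fibroblast and endothelial markers Dcn and Cldn5 were lower on day 4 in both regions and on days 6 and 10 in bSCs. Dcn did not stand for its list on day 4. The median log2 fold change of the 5 fibroblast markers was then 0.55 in dSCs and 0.44 in bSCs. In bSCs it was -0.18 on day 6 and -1.33 on day 10. Col1a1 was higher in bSCs on day 6 (3.18), the day of the Insig1 call there, and Dcn was lower in bSCs than in dSCs over the days (-1.16). The part of these markers in the lipid results was not tested. Among the SC markers Pmp22 was called lower from day 4 on in both regions. Ngfr went the other way. It was called higher in dSCs on days 4, 6, 8 and 10 (3.4, 4.1, 4.4 and 4.0) and in bSCs on days 6 and 10 (3.2 and 3.0). Msmo1 was the one gene of the further sterol list called, lower on day 4 in dSCs (-4.32) and in bSCs (-3.78). Of the further fatty acid and sphingolipid genes, Acsl4 (1.72) and Sgpl1 (2.03) were called higher in bSCs on day 4.

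The experiments were set side by side at day 6, in one fit of 47 libraries and 15913 genes with the difference of the contrasts as the test. Scd2 (chr19:44368166-44381354) was the gene of the 39 for which they differed. In pooled nerves it was 1697, 2105, 1835 and 959 CPM in iSCs, 557, 239, 281 and 330.3 CPM in dSCs and 325, 278, 385 and 289.7 CPM in bSCs. In single nerves, normalized separately, it was 528, 404, 313, 646 and 226 CPM in iSCs, 486, 349 and 761 CPM in dSCs and 209, 627 and 571 CPM in bSCs on day 6. The pooled iSC libraries all stood above the single ones. The ranges of the injured libraries overlapped between the experiments, with the highest dSC and bSC values in single nerves.

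The day 6 change of Scd2 against iSCs was -2.37 ± 0.32 in pooled and 0.15 ± 0.39 in single bSCs, a difference of 2.61 ± 0.51 (adjusted p = 0.0237, with 0.0440% of all genes called). Without the 4 libraries with few genes it was 2.62 (adjusted p = 0.0464). For dSCs the difference was 2.62 ± 0.51 and did not pass (adjusted p = 0.0679, and no gene of all tested was called). The experiments were made separately and differ in pooling, and these cannot be told apart. Their iSC libraries also differed in cell markers, with a median SC marker sum of 52920 CPM in pooled and 11780 CPM in single nerves and a median endothelial sum of 351 and 2937 CPM. The part of these markers in the result was not tested.

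The differences of most members had the same sign as that of Scd2. In dSCs 8 of the 39 had a value below 0, among them 2 of 12 fatty acid and 4 of 16 sterol genes, and the medians were 1.29 for the fatty acid, 0.79 for the sterol and 0.02 for all genes. In bSCs 10 of the 39 were below 0, and the medians were 1.38, 0.62 and 0.24. Fasn changed by -2.06 in pooled and 0.53 in single dSCs (0.05 without the 4 libraries with few genes, difference with all libraries 2.62 ± 0.69, adjusted p = 0.637), and Srebf1 by -1.22 and 0.61 (1.88 ± 0.68, adjusted p = 0.677). Neither passed. Idi1 and Fdps were lower than iSCs in both experiments, with differences in dSCs of -1.76 ± 1.203 and 0.24 ± 0.66.

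**Figure D5:**
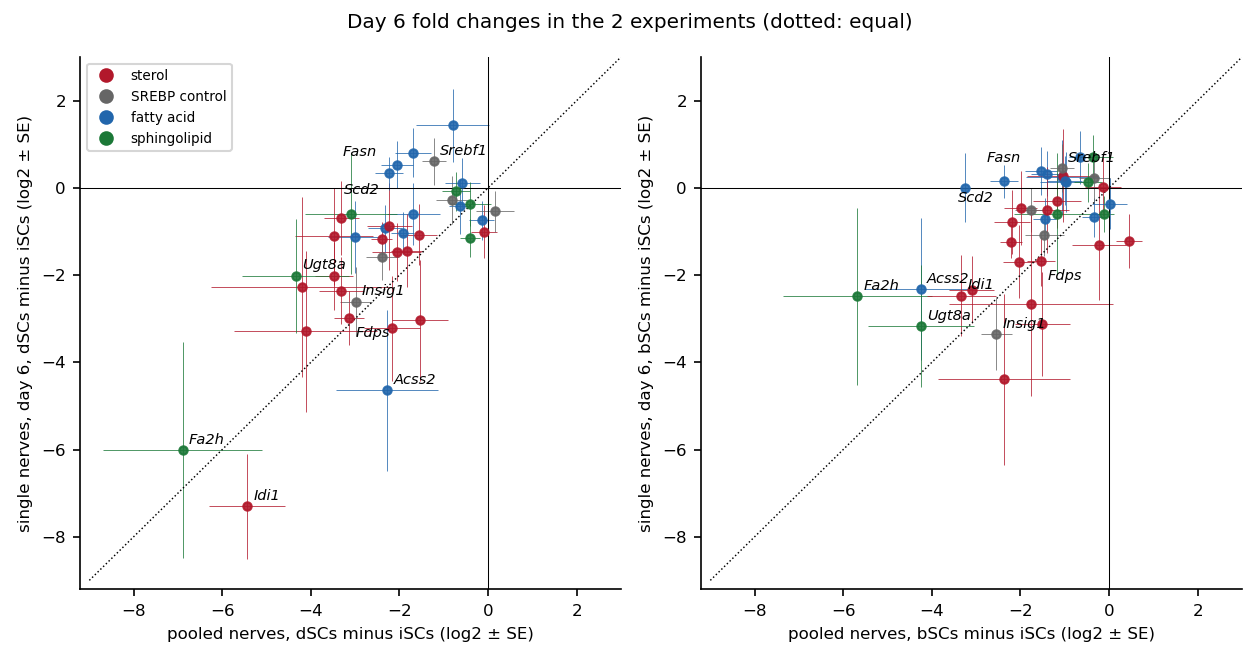
Log2 fold change with SE against iSCs on day 6 in pooled (x axis) and single nerves (y axis) for 39 genes, dSCs on the left and bSCs on the right, coloured by branch, with a dotted line of equality. Idi1, Fdps, Fa2h and Ugt8a lie below 0 on both axes in both panels, while Fasn, Scd2 and Srebf1 lie below 0 on the x axis and above 0 on the y axis (Fasn at -0.05 in single bSCs without the 4 libraries with few genes).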

How the data were processed

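RNA of sorted tdTomato+ SCs was sequenced after Smart-seq2 amplification. The authors deposited raw counts of reads per gene for each library; the submitters' processing notes name TopHat2 2.0.11, HTSeq and the mm9 build. The 2 files of each of 8 libraries were summed. Rows for reads assigned to no gene (39.1% to 47.1% of counted reads were on genes) and 92 spike-ins were left out. Pooled libraries held 11435463 to 22617054 counts (median 13527755) and single-nerve libraries 9240883 to 22426128, and their number and spread limit the precision. The rat cultures were not used here.

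Counts were fitted with edgeR 4.0.16 (R 4.3.3) by the quasi-likelihood test, with TMM normalization, filterByExpr and one fit per experiment. The adjusted p-values are Benjamini-Hochberg over all genes tested, and a gene was called below 0.05. Levels are CPM on TMM-scaled libraries. DESeq2 1.42.0, its size factors, no filter, a filter of 100 counts in 85% of libraries, the groups compared alone, covariates for files and a block were alternatives, with each library left out in turn. The scripts were tested on simulated data.

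The labels give libraries of 1 pool number, or of stump and bridge of 1 nerve, 1 animal identifier. Deviations of same-numbered pooled libraries had a mean correlation of -0.01 over 10 pairs (from -0.13 to 0.08), and those of single nerves of 0.16 over 10 pairs (from -0.06 to 0.68). Labels of 1 day 10 bridge library disagree on its animal, so it was left unpaired. Libraries are labelled as separate pools or animals within a group.

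The members and lists were chosen with earlier results of these data known. In each step, the 2 called genes with the largest change, or the lowest p where none was called, were given in full. Other genes given are marked by a reason or by levels alone. Some genes of the further lists are not reported here by name.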

Additional observations from a re-analysis of the deposited data

Results flagged for a closer look

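In groups of 4 or 5 libraries, the level of a gene in 1 library was set apart when its gap to the nearest other, as a share of the group's range, exceeded Dixon's 95% critical value. This marked 17 of 156 groups, and chance marks about 1 in 20.

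In iSC pools, Fdps (244 CPM against 386 to 414 in the other pools) and Insig1 (240.0 against 364 to 389) were low in pool 5, which also held the highest macrophage marker sum. Lss was low in pool 1 (27.1 against 70.6 to 78.3 CPM) and Fads3 high there (72.3 against 38.4 to 43.9 CPM). Srebf1 was high in pool 2 (169.7 against 112 to 121 CPM).

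Among dSC pools, pool 3 was high for Fa2h (14.99 against at most 0.0673 CPM), Tm7sf2 (3.77 CPM against 0) and Elovl1 (222 against 132 to 133 CPM). Pool 2 was high for Acss2 (31.1 against 5.17 to 7.27 CPM) and low for Fads3 (11.2 against 16.1 to 16.9 CPM). Among bSC pools, Sptlc2 was high in pool 2 (163 against 76.8 to 90.8 CPM) and Gal3st1 in pool 1 (39.0 against 15.9 to 17.4 CPM).

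Among single iSC nerves all 5 marked genes were high in nerve 0, one of the libraries with few genes: Acat2 (153 against 22.4 to 42.9 CPM), Mvk (94.9 against 11.73 to 24.9), Fdps (736 against 89.9 to 220.2), Cyp51 (260.5 against 34.2 to 90.03) and Elovl1 (708 against 202 to 277).

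The change of Scd2 from iSCs to bSCs on day 6 differed between the experiments by 2.61 on the log2 scale in a test of the difference itself.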

How the results depend on the processing

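Alternatives were followed for 58 values of single genes, most of them called, and not for every value given. Of 863 values of this set under an alternative, 679 kept direction and side of the threshold, 164 were no longer called, 20 became called and none reversed. Values outside this set could change sign, as that of Fasn in single bSCs on day 6 did without the 4 libraries with few genes. The share of all genes called under each alternative is not given, so the counts of members below have no background beside them. In pooled nerves the members called with bSCs against dSCs (2) were 8 by DESeq2, 4 with its size factors and 1 with the groups compared alone. The replicate block by pool number gave 12, 13 and 0 members for dSCs against iSCs, bSCs against iSCs and bSCs against dSCs, and leaving out a library gave 13 to 22, 13 to 18 and 1 to 3. With a library left out, the branch medians for bSCs against dSCs were -0.15 to 0.18 (fatty acid), and for dSCs against iSCs -2.51 to -1.66 (sphingolipid).

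For single dSCs on the 6 days in turn (0, 0, 2, 2, 2 and 0 called), DESeq2 called 0, 2, 9, 9, 8 and 6, and for bSCs on days 4, 6, 8 and 10 (1, 1, 0 and 0) it called 8, 7, 6 and 4. It called 2 for bSCs against dSCs and 1 for differences among days. The filter of 100 counts in 85% of libraries, which tests fewer genes, gave 4, 2, 3 and 1 in dSCs on days 4 to 10, 4, 2, 1 and 0 in bSCs, and 1 among days. A covariate for file names that begin with C gave 4, 2, 3 and 1 in dSCs on days 4 to 10 and 3, 1, 1 and 0 in bSCs. The groups compared alone gave 1 in dSCs on day 4 (Fa2h, with Idi1 and Fdps lost), 0 on days 6 and 8 and 0 in bSCs. Insig1 in dSCs on day 4 became called by DESeq2 (-2.94, adjusted p = 0.000761). In edgeR it became called with the DESeq2 size factors (0.0463), that filter (0.0297), that covariate (0.0199) and a block by the number in the titles (0.0441). It also became called without iSC nerve 3 or 5 (0.0227 and 0.0467), and in no other alternative.

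Alternatives added after the data were seen left out libraries. Without the 4 with few genes, dSCs had 2, 1 and 0 calls on days 4, 6 and 8, bSCs 0, and bSCs against dSCs 1. Without the 2 near-identical libraries day 4 had 0 calls in either region. Without all 6, dSCs had 0, 1 and 0 calls on days 4, 6 and 8, bSCs 0, and bSCs against dSCs 2. Leaving out 1 library gave 0 to 3, 1 to 4, 0 to 3 and 0 to 2 calls in dSCs on days 4, 6, 8 and 10, 0 to 3, 0 to 1 and 0 to 1 in bSCs on days 4, 6 and 8, 0 to 1 for bSCs against dSCs and 0 to 1 among days. A replicate block by the number in the titles gave 3, 2, 2 and 0 in dSCs on days 4 to 10 and 1, 1, 1 and 0 in bSCs, where Fdps replaced Idi1 on day 4 (Idi1 adjusted p = 0.0513), as Insig1 did in dSCs on day 8 (0.0507). Except where fewer samples or genes entered, the cause was not tested.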
